A study of Homo sapiens with 4 samples.

Results

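Chemokines are small secreted proteins that direct the movement of leukocytes, and chemokine receptors are the G protein-coupled receptors that bind them. The family was taken as the protein-coding genes whose symbol starts with CCL, CCR, CXCL, CXCR, XCL, XCR, CX3CL, CX3CR or ACKR followed by a digit, which gave 65 of the 58037 genes of the count table: 43 chemokines, 18 signalling receptors and 4 atypical receptors. Gene expression was measured by RNA-Seq in OCI-AML3, an established human acute myeloid leukemia (AML) line that carries a heterozygous NPM1 mutation (mtNPM1) together with mutations of DNMT3A (heterozygous) and NRAS (homozygous), 3 days (72 hours in the labels) after transfection with Cas9 and either a control guide (sgRNA Ctrl, labelled sgNeg, 2 libraries) or a guide directed at the mutant NPM1 allele (sgNPM1A, 2 libraries). All 4 libraries come from this 1 line, no cloning step is stated for the transfected OCI-AML3 cells, and the paper and the labels name different culture media. The libraries of a condition are called biological replicates in the paper, but nothing says that they came from separate transfections, so the p-values measure the spread between these libraries.

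As background, CC and CXC chemokines are named for the spacing of their first cysteines. CC chemokines such as CCL2 and CCL5 mainly attract monocytes and T cells, while the CXC chemokines of the CXCL1 and CXCL8 group attract neutrophils. In myeloid cells CXCR4 holds immature cells in the bone marrow, CXCR2 drives neutrophil release and migration, and CCR2 and CX3CR1 mark different monocyte states. Atypical receptors bind chemokines without signalling through G proteins.

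Total counts were 25069484 and 25587774 in the sgRNA Ctrl libraries and 28276391 and 28209174 in the sgNPM1A libraries. A count of 3, taken as the smallest that is told from 0, was worth from 0.108 to 0.118 CPM (TMM-normalized counts per library size), which covers counting error only. NPM1, the targeted gene, had 33522 and 35881 counts in the sgRNA Ctrl libraries and 33154 and 31428 in the sgNPM1A libraries, with a log2 fold change of -0.22 (SE 0.07) and an edgeR adjusted p of 0.0360, short of the change needed for a call (below). The count sums the mutant and wild-type alleles, so it checks the labels only weakly. Under limma-trend on quantile-normalized values the log2 fold change of NPM1 was -0.42 and the gene was called. Other alternatives went both ways. The edgeR adjusted p was 0.156 with a replicate block and 0.0509 with protein-coding genes only. It was 0.0164 with library size only and 0.00756 with no filter on low counts, and the DESeq2 adjusted p was 0.0187. In none of these did the log2 fold change reach the size needed for a call. When each library was left out in turn, the log2 fold change ran from -0.256 to -0.182.

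Of the 65 members, 19 had enough counts to be tested, 21 had 0 counts in every library, 15 had from 1 to 9 counts over the 4 libraries and 10 had at least 10 without passing the filter on low counts. A gene was called at an edgeR adjusted p under 0.05 and a log2 fold change of at least 0.32 in size, which held for 8 of the 19 tested members and for 20.8% of the 15718 genes tested in all. CCR2 and CXCR2 were called higher in the sgNPM1A libraries (10.5% of all tested genes were), and CX3CR1, CCL24, CCL3, CCL3L3, CCL5 and CCL2 were called lower (10.3% of all tested genes were). The 6 signalling receptors tested gave 2 higher and 1 lower call, the 12 chemokines 0 higher and 5 lower, and the single atypical receptor none. The median log2 fold change was -0.11 over the 19 tested members, -0.19 over the chemokines and 0.16 over the signalling receptors, beside 0.00 over all tested genes. In CPM, both sgNPM1A libraries lay above both controls for 5 of the 19 members and below them for 6, that is for 11 in all, beside 31.4%, 31.7% and 63.1% of all tested genes. These counts describe the members that passed the filter, which CCL24 and CCL3 did through their sgRNA Ctrl libraries alone and ACKR3 through both sgNPM1A libraries. Without sgRNA Ctrl replicate 2, or without sgNPM1A replicate 2, the lower calls among members fell to 3, and without sgRNA Ctrl replicate 1 the higher calls rose to 4.

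**Figure D1:**
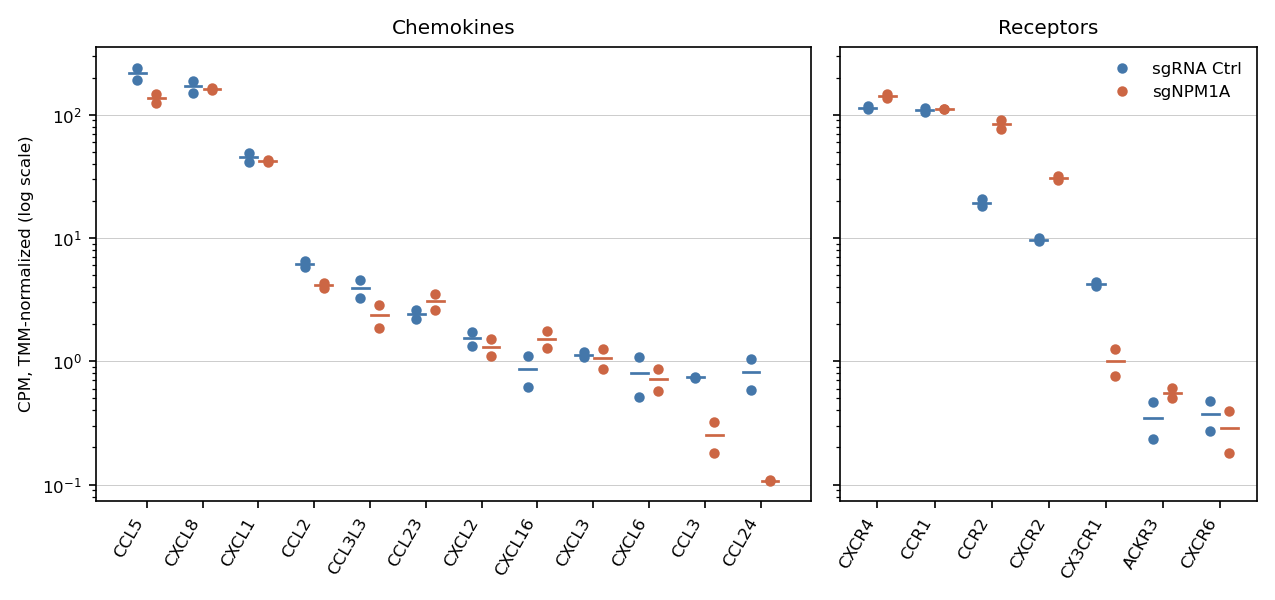
TMM-normalized CPM on a log scale for the 19 tested members in each of the 4 libraries (points) with the mean of each condition (bars), chemokines on the left and receptors, ACKR3 included, on the right. CCR2 and CXCR2 are higher and CX3CR1 lower in both sgNPM1A libraries; values should be compared within a gene, since CPM are not divided by length.

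Among the receptors, CCR2, the receptor for CCL2 that carries monocytes out of the marrow, showed the rise with the smallest adjusted p of the family. CCR2 (ENSG00000121807, chr3:46354111-46360940 on GRCh38) was at 20.6 and 18.1 CPM in the sgRNA Ctrl libraries and at 76.0 and 90.9 CPM in the sgNPM1A libraries. Both sgNPM1A libraries lay far above both controls, with a mean of 83.4 ± 10.5 CPM (SD, n = 2) against 19.4 ± 1.74 CPM (SD, n = 2). The log2 fold change was 2.11 (SE 0.11, 95% interval 1.87 to 2.34, edgeR adjusted p = 1.90e-07), a 4.30-fold rise, and it lay between 1.97 and 2.23 over the 14 alternatives. In these bulk libraries, more cells of a type and more RNA per cell cannot be told apart.

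CXCR2, the neutrophil receptor for CXCL8 and the CXCL1 group, also rose. CXCR2 (ENSG00000180871, chr2:218125294-218137251) was at 9.91 and 9.46 CPM in the sgRNA Ctrl libraries and at 29.6 and 31.6 CPM in the sgNPM1A libraries, so that the conditions did not overlap. Its log2 fold change was 1.66 (SE 0.10, 95% interval 1.44 to 1.88, edgeR adjusted p = 6.59e-07), which is 3.16-fold. CXCR1, the neighbouring receptor for CXCL8, had 0 counts in every library, which allows up to 0.118 CPM. The pseudogene CXCR2P1 is not a member and was named after its values were seen. It had 2 and 4 counts in the sgRNA Ctrl libraries and 21 and 19 in the sgNPM1A libraries (log2 fold change 2.57, edgeR adjusted p = 0.00366). CXCR2P1 passed the filter on low counts through its sgNPM1A libraries alone. CXCR2 shares 5.25% of its transcripts' words of 50 bases with CXCR1 and CXCR2P1, so reads from these stretches could have been split between the genes.

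CX3CR1, the fractalkine receptor of patrolling monocytes and tissue macrophages, moved the other way. CX3CR1 (ENSG00000168329, chr3:39263494-39292966) was at 4.41 and 4.05 CPM in the sgRNA Ctrl libraries and at 1.26 and 0.756 CPM in the sgNPM1A libraries, where 35 and 21 counts stood behind the values. Both control libraries lay above both sgNPM1A libraries. The log2 fold change was -2.07 (SE 0.24, 95% interval -2.60 to -1.53, edgeR adjusted p = 9.22e-05), a 4.19-fold lower level. CX3CL1, its main ligand, had 0 counts in every library.

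CXCR4, the receptor for CXCL12, fell just short of the fold needed for a call. CXCR4 (ENSG00000121966, chr2:136114349-136118149) was at 118 and 111 CPM in the sgRNA Ctrl libraries and at 137 and 146 CPM in the sgNPM1A libraries, which did not overlap. Its log2 fold change was 0.31 (SE 0.07, 95% interval 0.16 to 0.46, edgeR adjusted p = 0.00729), beside the 0.32 that a call requires. CXCR4 was called without sgRNA Ctrl replicate 1 (0.35) and without sgNPM1A replicate 1 (0.36). Its log2 fold change was smaller without sgRNA Ctrl replicate 2 (0.268) and without sgNPM1A replicate 2 (0.266). CXCL12 had 1 count over the 4 libraries.

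CCR1, a receptor for CCL3 and CCL5, did not differ beyond its spread. CCR1 (ENSG00000163823, chr3:46201711-46208313) was at 114 and 105 CPM in the sgRNA Ctrl libraries and at 111 and 110 CPM in the sgNPM1A libraries, and the conditions overlapped. The log2 fold change was 0.02 with a 95% interval of -0.14 to 0.17, which leaves out changes of the size used for a call. CXCR6, the receptor for CXCL16, had 12 and 7 counts in the sgRNA Ctrl libraries and 5 and 11 in the sgNPM1A libraries, with a log2 fold change of -0.36 (95% interval -1.56 to 0.84) that does not exclude a change of either sign. ACKR3, an atypical receptor that takes up CXCL12, had 6 and 12 counts against 17 and 14, with a log2 fold change of 0.66 (95% interval -0.33 to 1.65, edgeR adjusted p = 0.320).

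Per kilobase of exon, the order of the receptor levels in the sgRNA Ctrl libraries was CCR1 (41.3 CPM per kb), CXCR4 (39.4), CCR2 (5.004), CXCR2 (3.01) and CX3CR1 (1.16). In the sgNPM1A libraries it was CXCR4 (48.8 CPM per kb), CCR1 (41.8), CCR2 (21.5), CXCR2 (9.52) and CX3CR1 (0.275). The order of CCR1 and CXCR4 therefore differed between the conditions per kilobase, but the exon lengths come from another annotation than the counts. In mean CPM, CXCR4 was above CCR1 in both conditions. It stood at 114 against 109 CPM in the sgRNA Ctrl libraries and at 142 against 111 CPM in the sgNPM1A libraries. Summed over the 18 signalling receptors, the level was 268 and 248 CPM in the sgRNA Ctrl libraries and 355 and 381 CPM in the sgNPM1A libraries, a ratio of 1.43 between the means. CCR2 made up 7.69% and 7.31% of the receptor counts in the sgRNA Ctrl libraries and 21.4% and 23.8% in the sgNPM1A libraries. CCR1, CXCR4, CCR2 and CXCR2 together held from 97.8% to 99.5% of the receptor counts in each library.

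The 250 bases before the start were read for the called members with the highest mean CPM that have an entry among the RefSeq promoters on GRCh38.p14, which gave CCR2, CXCR2, CCL3L3 and CX3CR1; they are shown because they lie directly upstream of receptors that moved in opposite directions and of a chemokine that fell. They run 5′ to 3′ on the gene's strand, at chr3:46353861-46354110 (plus strand) for CCR2, chr2:218125778-218126027 (plus strand, a start within the CXCR2 gene as given above) for CXCR2, chr17:36196759-36197008 (minus strand) for CCL3L3 and chr3:39281736-39281985 (minus strand, also a start within the gene) for CX3CR1. Capitals mark a match, on either strand, to one of the motifs searched.
CCR2: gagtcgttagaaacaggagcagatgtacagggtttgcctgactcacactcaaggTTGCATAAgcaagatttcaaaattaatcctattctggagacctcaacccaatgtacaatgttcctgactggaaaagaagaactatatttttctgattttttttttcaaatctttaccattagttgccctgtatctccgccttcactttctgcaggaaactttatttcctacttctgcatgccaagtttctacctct
CXCR2: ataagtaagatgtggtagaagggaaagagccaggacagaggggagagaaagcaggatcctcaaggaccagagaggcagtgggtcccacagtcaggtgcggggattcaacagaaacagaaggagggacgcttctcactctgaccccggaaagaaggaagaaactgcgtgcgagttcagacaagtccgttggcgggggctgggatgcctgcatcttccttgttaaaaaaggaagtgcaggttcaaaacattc
CX3CR1: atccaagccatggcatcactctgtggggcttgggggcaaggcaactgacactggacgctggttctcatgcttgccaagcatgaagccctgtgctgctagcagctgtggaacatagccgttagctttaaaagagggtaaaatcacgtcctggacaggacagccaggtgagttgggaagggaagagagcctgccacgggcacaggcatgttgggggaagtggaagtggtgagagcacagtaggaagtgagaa
CCL3L3: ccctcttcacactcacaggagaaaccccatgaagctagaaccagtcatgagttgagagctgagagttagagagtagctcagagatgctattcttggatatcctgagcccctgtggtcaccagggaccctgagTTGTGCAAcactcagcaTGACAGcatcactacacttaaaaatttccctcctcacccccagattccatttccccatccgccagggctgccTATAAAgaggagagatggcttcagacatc

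The motifs searched were the TATA box TATAAA, the purine box of PU.1 and other ETS factors GAGGAA, the C/EBP motif TTGCNNAA, the MEIS motif TGACAG, the HOX-PBX motif TGATTNAT and the NF-kB motif, each on both strands. The CCR2 sequence holds a C/EBP match whose first base lies at -196 from the start. The CCL3L3 sequence holds a C/EBP match at -118 (on the opposite strand), a MEIS match at -101 and a TATA box at -29, and the promoter of CCL3 holds the same 3 kinds of match, at -116, -101 and -29. The CXCR2 and CX3CR1 sequences hold no match to these letters, and the CCL24 promoter holds a purine box at -6. Of the 35116 promoters of this length in the table, 9.05% hold the C/EBP motif, 10.7% the TATA box, 13% the MEIS motif, 23.6% the purine box, 9.96% the NF-kB motif and 2.48% the HOX-PBX motif. None of the 6 called members with an entry holds the NF-kB or the HOX-PBX motif in this window; CCL5 and CCL2 have no entry. A match is a description of the letters and no evidence of binding.

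Of the 6 CC chemokines tested, 5 were called lower, beside 10.3% of all tested genes, and CCL23 was not called. Of the 5, CCL24 and CCL3 passed the filter on low counts through their sgRNA Ctrl libraries alone. The calls of CCL2, CCL3 and CCL3L3 were lost under DESeq2. CCL5 (RANTES, ENSG00000271503, chr17:35871491-35880360), a chemoattractant for T cells and monocytes, was at 191 and 241 CPM in the sgRNA Ctrl libraries and at 147 and 125 CPM in the sgNPM1A libraries. The control libraries differed from each other by about as much as the lower of them did from the higher sgNPM1A library, but the conditions did not overlap. The log2 fold change was -0.67 (SE 0.11, 95% interval -0.90 to -0.43, edgeR adjusted p = 0.000866), a 1.59-fold lower level. It lay between -0.82 and -0.49 over the 14 alternatives, which leave out the other fold thresholds, and each of them kept the call. At a fold of at least 2 CCL5 was not called. CCL5 shares 15.6% of its words of 50 bases with other genes, so some of its counts could have been assigned differently.

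CCL2 (MCP-1, ENSG00000108691, chr17:34255285-34257203), the main ligand of CCR2, was at 5.82 and 6.56 CPM in the sgRNA Ctrl libraries and at 4.34 and 3.93 CPM in the sgNPM1A libraries, without overlap. Its log2 fold change was -0.58 (SE 0.16, 95% interval -0.92 to -0.24, edgeR adjusted p = 0.0175). The call was lost under DESeq2 (adjusted p = 0.116), without sgRNA Ctrl replicate 2 (0.0768) and without sgNPM1A replicate 2 (0.121), and the adjusted p over the 14 alternatives ran from 0.000692 to 0.121. The low end of this range, and of the ranges given below for CCL3 and CCL3L3, came from a setting added after seeing the data. That setting crossed the replicate numbers and used them as a block. CCL7, CCL8 and CCL13, other ligands of CCR2, had at most 5 counts each over the 4 libraries.

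CCL3 (MIP-1 alpha, ENSG00000277632, chr17:36088256-36090143), an inflammatory ligand of CCR1, had 19 and 19 counts in the sgRNA Ctrl libraries and 9 and 5 in the sgNPM1A libraries. Its log2 fold change was -1.54 (SE 0.44, 95% interval -2.50 to -0.58, edgeR adjusted p = 0.0232). CCL3L3 (ENSG00000276085, chr17:36194869-36196758), a near-identical copy of CCL3, had 83 and 119 counts against 79 and 52, and a log2 fold change of -0.74 (SE 0.24, 95% interval -1.27 to -0.21, edgeR adjusted p = 0.0427). Neither gene overlapped between conditions in CPM, although the first control library of CCL3L3 (3.27 CPM) was close to the first sgNPM1A library (2.83 CPM). CCL3 and CCL3L3 share 5.31% and 5.41% of their words of 50 bases exactly, so how the counting divided reads between them is uncertain. The CCL3 call was lost under DESeq2 (adjusted p = 0.222) and without sgRNA Ctrl replicate 1 (0.104), sgRNA Ctrl replicate 2 (0.0961) or sgNPM1A replicate 2 (0.238), in a range of 0.00478 to 0.238. The CCL3L3 call was lost under DESeq2 (0.154), upper-quartile scaling (0.0523) and protein-coding genes only (0.0541), and without sgRNA Ctrl replicate 2 (0.252) or sgNPM1A replicate 2 (0.263), in a range of 0.000664 to 0.263.

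CCL24 (eotaxin-2, ENSG00000106178, chr7:75810825-75823372), a ligand of the eosinophil receptor CCR3, had 15 and 27 counts in the sgRNA Ctrl libraries and 3 and 3 in the sgNPM1A libraries. The 42 counts of the controls against 6 correspond to a 7.59-fold lower level after scaling, with an exact counting interval of 3.21 to 21.8, and the sgNPM1A values sit at the floor of 3 counts. The fitted log2 fold change was -2.87 (SE 0.55, edgeR adjusted p = 0.00279), and the call held in the 13 alternatives that tested the gene. CCL23, a ligand of CCR1, was at 2.20 and 2.63 CPM against 2.62 and 3.53 CPM, and its log2 fold change of 0.35 (95% interval -0.13 to 0.82, edgeR adjusted p = 0.271) was not called.

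None of the 6 tested CXC chemokines was called, beside 20.8% of all tested genes called in either direction. Their median log2 fold change was -0.10, beside -0.70 for the 6 CC chemokines. This division was made after the values were seen, and the difference between the groups was not tested. CXCL8 (interleukin-8, ENSG00000169429, chr4:73740569-73743716), the neutrophil chemoattractant that binds CXCR2, was at 151 and 188 CPM in the sgRNA Ctrl libraries and at 165 and 157 CPM in the sgNPM1A libraries. The sgNPM1A values lay between the controls, and the log2 fold change was -0.07 (95% interval -0.28 to 0.13, edgeR adjusted p = 0.607). CXCL1 (ENSG00000163739, chr4:73869393-73871308) was at 41.3 and 48.9 CPM against 42.6 and 41.1 CPM, with a log2 fold change of -0.11 (95% interval -0.31 to 0.10). For both genes the 95% interval leaves out a fall or rise of the size used for a call.

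CXCL2, another ligand of CXCR2, was at 1.34 and 1.74 CPM in the sgRNA Ctrl libraries and at 1.11 and 1.51 CPM in the sgNPM1A libraries. CXCL3 was at 1.18 and 1.08 CPM against 0.861 and 1.26 CPM, and CXCL6, measured by 13 to 28 counts, was less precise still. The log2 fold changes were -0.23 (95% interval -0.83 to 0.37), -0.09 (-0.75 to 0.56) and -0.15 (-1.05 to 0.75), so a change of either sign is not excluded for these 3 genes. CXCL1, CXCL2 and CXCL3 share from 4.57% to 13.4% of their words of 50 bases with each other, and their counts could be mixed to that extent. CXCL16, a membrane-bound ligand of CXCR6, had 28 and 16 counts in the sgRNA Ctrl libraries and 36 and 49 in the sgNPM1A libraries. The conditions did not overlap, and the log2 fold change was 0.83 (95% interval 0.11 to 1.55, edgeR adjusted p = 0.0857). CXCL16 was called without the filter on low counts (adjusted p = 0.0460), with the replicate numbers crossed and added as a block (0.0210) and without sgRNA Ctrl replicate 1 (0.0443), in a range of 0.0210 to 0.435.

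**Figure D2:**
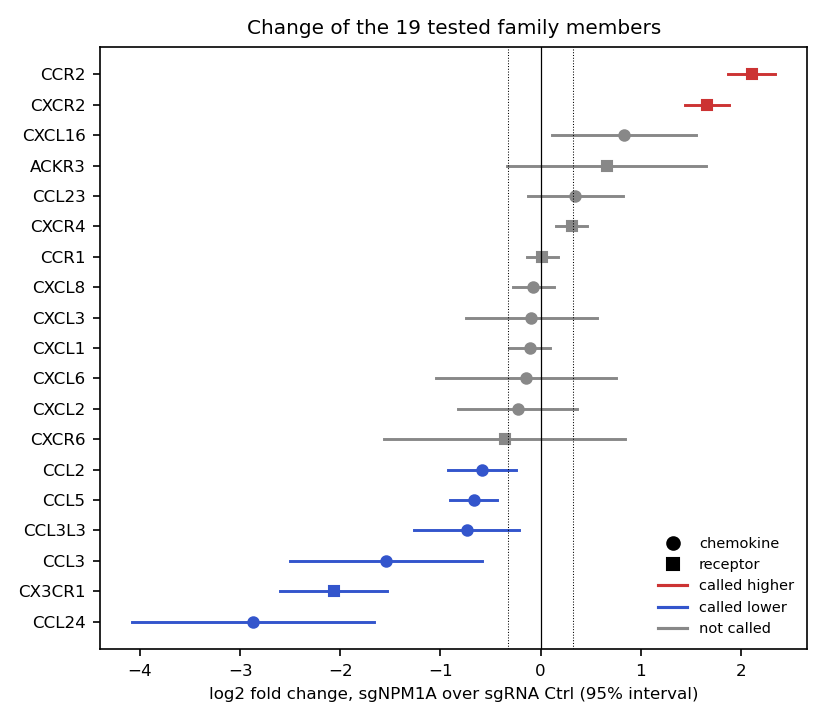
Log2 fold change of sgNPM1A over sgRNA Ctrl with its 95% interval for the 19 tested members, ordered by value; circles are chemokines, squares are receptors, colours give the call and dotted lines mark the size needed for a call. CCR2 (2.11) and CXCR2 (1.66) stand at the top, and CCL24 (-2.87), CX3CR1 (-2.07) and CCL3 (-1.54) at the bottom with wider intervals for the genes of few counts.

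The chemokine total was carried by CCL5 and CXCL8. Summed over the 43 chemokines, the level was 401 and 500 CPM in the sgRNA Ctrl libraries and 369 and 339 CPM in the sgNPM1A libraries, a ratio of 0.786 between the means, and the control libraries differed from each other by more than the nearer of them did from the higher sgNPM1A library. CXCL8 and CCL5 together held from 83.3% to 85.7% of the chemokine counts in each library. CCL5 took 47.6% and 48.1% in the sgRNA Ctrl libraries and 39.8% and 36.9% in the sgNPM1A libraries, while CXCL8 took 37.6% and 37.6% against 44.6% and 46.4%. Per kilobase of exon, CCL5 was at 158 and CXCL8 at 65.5 CPM per kb in the sgRNA Ctrl libraries, and at 99.7 and 62.2 CPM per kb in the sgNPM1A libraries. CXCL1 followed at 33.1 and 30.7 CPM per kb.

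Members with at least 10 counts that were not tested are given by their counts, and CXCL9, CXCL10, CXCL11 and CXCR3 also by a fit without the filter. CXCL9, CXCL10 and CXCL11, the interferon-induced ligands of CXCR3, had 4 and 8, 8 and 11, and 8 and 19 counts in the sgRNA Ctrl libraries and 2 and 1, 4 and 1, and 8 and 1 in the sgNPM1A libraries. CXCR3 itself had 10 and 5 counts against 2 and 1. For CXCL9, CXCL10 and CXCR3 the sgRNA Ctrl libraries had the higher counts, while CXCL11 had 8 counts in one library of each condition. With no filter on low counts, edgeR called CXCL10 (log2 fold change -1.99, adjusted p = 0.0450) and CXCL11 (-1.68, adjusted p = 0.0285) lower, and neither CXCL9 nor CXCR3.

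CCR3, the receptor for CCL24, had 8 and 5 counts in the sgRNA Ctrl libraries and 2 and 2 in the sgNPM1A libraries. CCR10, a receptor of skin-homing lymphocytes, had 4 and 4 against 7 and 12. Both receptors were higher in both libraries of one condition, but at counts near the floor. CCL22 had 2 and 8 counts against 3 and 5, CCL20 had 1 and 6 against 0 and 4, and the atypical receptor ACKR2 had 3 and 2 against 3 and 5. A difference in these last 3 was not detectable at this depth. CCL4, which is often induced together with CCL3, had 3 counts over the 4 libraries.

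Set side by side, the ligands and receptors with enough counts were unevenly matched. CCR2 rose while CCL2, its main ligand, was called lower. The CCL2 call was lost under DESeq2 and without sgRNA Ctrl replicate 2 or sgNPM1A replicate 2. CCR1 was not called, while of its ligands CCL5 and CCL3 were called lower and CCL23 was not called. The CCL3 call was lost under DESeq2. CXCR2 rose while CXCL1, CXCL2, CXCL3, CXCL6 and CXCL8 were not called. PPBP, a ligand of CXCR2 outside the symbol rule (below), was called higher at few counts, 2 and 2 against 11 and 16. CX3CR1 and CXCR4 were measured in libraries with next to no counts for their ligands CX3CL1 and CXCL12. CCL24 and its receptor CCR3 were both near or under the floor in the sgNPM1A libraries. These pairs are known from other work, and no binding or secretion was measured here.

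CCR2 lies in a cluster of receptor genes on chromosome 3. Within 500 kb of it lie 26 genes of the table, 6 of which were tested, CCR1, CXCR6 and CCR2 among them. CCR2 was called higher, LRRC2 was called lower, and the other 4 were not called. LRRC2, named after its values were seen, had 16 and 15 counts against 8 and 3 (log2 fold change -1.59, edgeR adjusted p = 0.0397). It passed the filter on low counts through its sgRNA Ctrl libraries alone. CCRL2, which starts 53.1 kb from the start of CCR2, had 0 counts in every library. On chromosome 17, which holds the main CC chemokine cluster, 19 members are annotated and 6 were tested. Of these, 4 were called lower, beside 10.3% of all tested genes, and CCL23 and CXCL16 were not called. The 5 tested members on chromosome 4, which holds the CXC cluster, gave no call, beside 20.8% of all tested genes called in either direction.

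**Figure D3:**
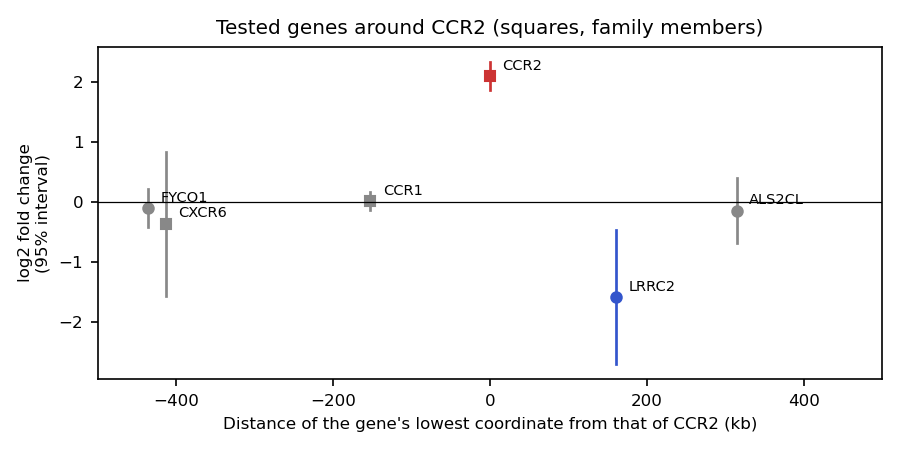
Log2 fold change with its 95% interval for the 6 tested genes within 500 kb of CCR2 against their distance in kb; squares are members of the family, red is called higher, blue called lower and grey not called. CCR2 (2.11) stands above the neighbouring receptors CCR1 (0.02) and CXCR6 (-0.36).

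Related genes were taken from 5 lists of 91 symbols in all. Of 7 chemokines and receptors whose symbols fall outside the rule, 3 were tested and PPBP, the platelet chemokine CXCL7 and a ligand of CXCR2, was called higher. PPBP had 2 and 2 counts in the sgRNA Ctrl libraries and 11 and 16 in the sgNPM1A libraries, a ratio of 6.23 with an exact counting interval of 2.17 to 24.5 (edgeR adjusted p = 0.0108); it was named after its values were seen. PPBP passed the filter on low counts through its sgNPM1A libraries alone, and with at least 10 counts required in every library it was not tested. The PPBP call was lost under DESeq2 and without sgRNA Ctrl replicate 1, sgRNA Ctrl replicate 2 or sgNPM1A replicate 2. CD74, a receptor for MIF, had a log2 fold change of 0.23 and was not called.

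Of the 16 other chemoattractant receptors, 12 were tested, 4 were called higher and 2 lower, with a median log2 fold change of 0.16. FPR2 and FPR1, the formyl peptide receptors that guide phagocytes to bacterial products, had 3 and 3, and 5 and 6 counts in the sgRNA Ctrl libraries against 71 and 84, and 64 and 83 in the sgNPM1A libraries. The FPR2 counts gave a ratio of 23.8 with an exact counting interval of 10.7 to 65.9 (edgeR adjusted p = 6.42e-06). FPR1 had a log2 fold change of 3.60 (edgeR adjusted p = 2.21e-05). Both genes passed the filter on low counts through their sgNPM1A libraries alone. With at least 10 counts required in every library they were not tested, and the higher calls of this list fell from 4 to 2. PTAFR, the receptor for platelet-activating factor, rose by 1.20 on the log2 scale and C5AR1, the complement C5a receptor, by 1.00. GPR183, an oxysterol receptor, had a log2 fold change of -1.04 and GPR35 one of -0.55.

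The signalling machinery of the receptors gave 8 higher and 1 lower call among 34 tested genes, with a median log2 fold change of 0.03. FGR, a Src-family kinase of mature myeloid cells, was at 1.14 and 1.16 CPM in the sgRNA Ctrl libraries and at 8.57 and 8.21 CPM in the sgNPM1A libraries, a log2 fold change of 2.86. The phosphoinositide 3-kinase subunit PIK3R5 (0.83), the Rac activator ELMO1 (0.76) and the receptor kinase GRK6 (0.48) were also called higher, and PTK2, focal adhesion kinase, was called lower (-0.83). The higher calls of this list numbered 6 with library size only, 6 with upper-quartile scaling and 1 at a fold of at least 2. The lower calls numbered 2 with library size only. Both counts also moved when sgRNA Ctrl replicate 2 or sgNPM1A replicate 2 was left out. GNAI2, RAC2 and DOCK2, the abundant G protein, small GTPase and exchange factor of leukocytes, had log2 fold changes of 0.02, 0.06 and -0.02 and were not called.

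The NF-kB and inflammatory cytokine list leaned the other way, with 1 higher and 8 lower calls among 20 tested genes and a median log2 fold change of -0.21. IL1B, the pyrogenic cytokine, was at 56.0 and 61.6 CPM in the sgRNA Ctrl libraries and at 22.7 and 20.4 CPM in the sgNPM1A libraries, a log2 fold change of -1.45. NFKBIZ (-0.79), OSM (-0.76), IL18 (-0.75) and RELB (-0.65) were called lower, and TNFAIP3, which restrains NF-kB, was called higher (0.95). NFKB1 (0.00) and RELA (-0.18), the subunits of the canonical dimer, were not called. Without sgNPM1A replicate 2 the lower calls of this list fell to 5. OSM was not called under DESeq2, without sgRNA Ctrl replicate 2 or without sgNPM1A replicate 2, and IL18 was not under DESeq2, without sgRNA Ctrl replicate 1 or without sgNPM1A replicate 2.

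Among 9 proteases that process chemokines, 3 were called higher and 4 lower, with a median log2 fold change of -0.22. PRTN3, proteinase 3 of neutrophil granules, was at 449 and 423 CPM in the sgRNA Ctrl libraries and at 2002 and 2030 CPM in the sgNPM1A libraries, a log2 fold change of 2.21. CTSG (0.57) and ELANE (0.50), the other serine proteases of these granules, also rose. DPP4, which trims the end of many chemokines, had a log2 fold change of -1.22, and the matrix metalloproteases MMP8 and MMP9 had -1.53 and -1.05. The share of called genes was 33.3%, 50%, 26.5%, 45.0% and 77.8% in these 5 lists as ordered above, beside 20.8% of all tested genes.

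**Figure D4:**
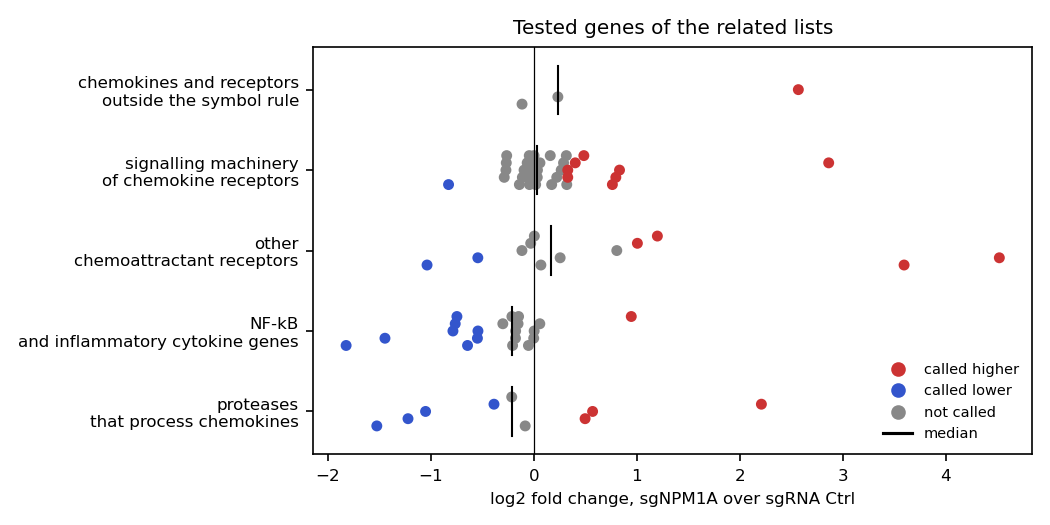
Log2 fold change of the tested genes of the 5 related lists (points, coloured by call) with the median of each list (vertical bar); the vertical spread of points within a list carries no value. FPR2 (4.52) and FPR1 (3.60) stand to the right, and the NF-kB and inflammatory cytokine list has a median of -0.21.

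Markers of myeloid cells were present, and most of those tested were higher in the sgNPM1A libraries. Of 8 such markers 7 were tested and 5 (CSF3R, SPI1, ANPEP, ITGAM and MPO) were called higher, beside 10.5% of all tested genes. CEBPA (log2 fold change 0.04) and CD33 (0.06) were not called, and CD68 was not tested. Summed over all 8 markers, the level was 981 and 1033 CPM in the sgRNA Ctrl libraries and 1399 and 1391 CPM in the sgNPM1A libraries. The part of this shift in the changes of CCR2, CXCR2 and CX3CR1 was not tested. Of 4 T cell markers 3 were at 0 and none had more than 3 counts in a library, and of 3 erythroid markers none had more than 3. The B cell marker MS4A1 and the NK cell marker KLRD1 were at 0 in every library, although NCAM1 (116 to 123 CPM) was not, and the summed megakaryocyte markers lay between 3.89 and 4.59 CPM. The 3 stromal markers summed to 28.1 and 29.4 CPM against 13.3 and 9.62 CPM, nearly all of it COL1A2. COL1A2 and DCN were called lower. DCN, with 13 and 15 counts against 5 and 6, passed the filter on low counts through its sgRNA Ctrl libraries alone. The part of these markers in the lower CC chemokines was not tested.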

How the data were processed

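Gene counts were analysed from 4 RNA-Seq libraries of OCI-AML3 cells, 2 transfected with sgRNA Ctrl and 2 with sgNPM1A, grouped as the labels give them. The values are raw, unnormalized read counts for each Ensembl gene, deposited by the authors after alignment to hg38 (STAR, Samtools); the program that counted the reads, its use of strand and the annotation release are not given in the sources used here, so reads of overlapping or antisense genes cannot be told apart. ERCC spike-ins are named in the paper, but 0 rows hold them, so they were not used for scaling. Symbols were found for 55646 of the 58037 rows; 71 matched the symbol rule, and 6 of them were left out as not protein-coding. Positions are RefSeq's on GRCh38, and gene types and exon lengths come from a GENCODE annotation lifted to GRCh37.

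The counts were filtered with filterByExpr (minimum count 10), TMM-normalized and tested with edgeR 4.0.16 in R 4.3.3 (robust quasi-likelihood F test, two-sided, Benjamini-Hochberg over all 15718 tested genes). With 2 libraries on each side, the smallest two-sided p of an exact permutation test is 0.333. Shared words are the distinct runs of 50 bases of a gene's transcripts that also occur in another gene of the table. Alternatives were DESeq2 1.42.0, limma-trend (limma 3.58.1), other scalings and filters, protein-coding genes only, a replicate block, other fold thresholds and leaving out each library, where the lone library of a condition is assumed to vary like the others. An adjusted p that DESeq2 gave as NA was left as NA. The tests were tried on simulated counts.

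The replicates of a condition differed by more than sampling noise and were counted as separate samples. The members, lists, motifs and tests were chosen with earlier results of these data known. Named genes are all called members, the other tested members, untested members with at least 10 counts, NPM1, and from each related list up to 6 called genes with the largest absolute log2 fold change and a mean of at least 1 CPM; genes outside this rule are marked in the text or appear as part of a pair, a cluster or a marker list. GNAI2, RAC2, DOCK2, NFKB1, RELA and CD74 were named as uncalled examples after their values were seen. Some genes covered by this rule are not reported here.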

Additional observations from a re-analysis of the deposited data

How the results depend on the processing

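CCR2, CXCR2, CX3CR1 and CCL5 kept their direction and call in the 14 alternatives in which they were tested, and CCL24 in 13. These alternatives leave out the other fold thresholds, and CCL5 was not called at a fold of at least 2. Members called lower numbered 3 under DESeq2 and 3 at a fold of at least 2, against 6, and from 3 to 7 when each library was left out in turn; members called higher numbered 2 to 4 when each library was left out. Over all genes, a fold of at least 2 left 498 higher and 502 lower calls, and in the related lists 7 and 6. Scaling by library size only shifted the median log2 fold change of all genes to -0.04 and the calls to 1433 higher and 1947 lower, against 1653 and 1619. The cause was not tested, except that a higher fold threshold leaves fewer genes by construction.

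The values that changed sign belong to genes that were not called. When each library was left out in turn, the log2 fold change ran from -0.225 to 0.0937 for CXCL8, from -0.227 to 0.0207 for CXCL1, from -0.0393 to 0.0765 for CCR1, from -0.388 to 0.160 for CXCL3, from -0.587 to 0.489 for CXCL6 and from -1.02 to 0.0985 for CXCR6; CXCL8, CXCL1, CCR1 and CXCL6 turned without sgRNA Ctrl replicate 2, CXCL3, CXCL6 and CXCR6 without sgNPM1A replicate 1, and CXCR6 without sgRNA Ctrl replicate 1. With library size only, CCR1 was at -0.023.

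The labels number the libraries 1 and 2 in each condition, but the deviations of same-numbered libraries had a correlation of -0.13 over 15718 genes. Keeping only better-measured genes, 8856 that averaged above 10 CPM, made it more negative, at -0.52. Neither value was positive, so the numbers were not taken to pair the samples. A negative value means that differently numbered libraries tended to deviate alike, and its cause was not tested. With the replicate block 2 members were called higher and 6 lower, 1637 and 1604 genes over all, and 17 and 14 in the related lists. With the crossed pairing, added after seeing the data, 3 members were called higher and 6 lower, and 1955 and 1918 genes over all. With 2 libraries a condition and under 30 counts for CCL3, CCL24, CXCR6 and ACKR3 in each library, depth limits what could be seen for the members of low counts.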
